A study of Oryza sativa with 2 samples.

Results

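Kinesins, histones H2B and cyclins are 3 gene families with many members that act in dividing cells, though not all do. They were compared here between leaves of rice with yellow leaf tips and leaves of green rice. Members were chosen by name from the gene annotation of the array. A probe set counted where it had a single annotated gene whose symbol or synonym, with a leading Os dropped, read KIN with a number and a letter, H2A. or H2B. with a number, or CYC with a letter and a number. Such a name was held by 73 genes of the RefSeq gene table, and 62 of them had a probe set of their own, out of 17905 genes on the array. They were 32 kinesins, 5 histones and 25 cyclins. No gene carried an H2A. name, so the histone family consisted of H2B genes only. The other 11 genes (3 kinesins, 4 H2B genes and 4 cyclins) are not analysed here.

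Total RNA was hybridised to 2 single-colour arrays, 1 per group, so there were no replicates and no test was possible. The differences below are between these arrays and not between the conditions. The first group was recombinant inbred lines labelled F9Y, described as mutant, vegetative stage, with yellow leaf tips. The second was recombinant inbred lines labelled F9G, described as normal green, also vegetative stage. Recombinant inbred lines are made by inbreeding the offspring of a cross, and the study concerns the early-senescing rice mutant SA0420. The parents, the age, the growth conditions and the number of plants or lines behind each RNA were not given in the sources used here. Leaves and leaf tips are both named by the labels as the material of both groups.

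Kinesins are motor proteins that move along microtubules or shorten them, and plants use many of them to build the spindle and the phragmoplast, the structure that lays down the new cell wall after division. Histone H2B is one of the core histones on which DNA is wound, and most of it is made while DNA is copied. Cyclins bind and activate cyclin-dependent kinases. Those of the A, B and D types drive the cell cycle, while those of the C, H, L and T types work mainly in transcription and RNA processing. Cells of a mature leaf blade have mostly stopped dividing.

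Values are signal intensity, 1 per probe set, in linear units. Signals of different probe sets do not measure relative abundance, so each gene was compared only between the arrays. The log2 difference is that of yellow leaf tip minus green after 22.6 was added to each signal, centred on the median of the kept probe sets. Genes were kept where a probe set had a mean signal of at least 86.0 over both arrays. Of the members, 44 were kept (22 kinesins, 5 H2B genes and 17 cyclins) and 18 were below this filter. A member whose signal was high on 1 array only could pass the filter through that array alone, so the counts among kept genes are descriptions. Counts of each family without the filter are also given where it left genes out. As a measure of signal without a rice target, 42 probe sets for Bacillus transcripts read from 1.60 to 56.9 on the yellow leaf tip array, whereas the green array gave 1.73 to 97.6. The SD between kept probe sets of the same gene was 0.46 on the log2 scale over all 2215 genes with several, 0.69 for the dimmest 20% of signals and 0.40 for the brightest 20%. It covers disagreement between probe sets and not between plants or arrays.

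Leaf identity was checked with marker genes. Of 10 green leaf markers, 9 were above the Bacillus controls on both arrays, and RBCS1 was not above them on either. Within this list PORA, a chlorophyll synthesis gene, was lower by over 2-fold (932 against 3188), and the other 8 of 9 kept markers were within 2-fold. Over all kept genes 3.18% were lower by at least 2-fold. PORB was level (7296 against 7432, 0.02), and PSAG was higher (0.51), with 2 probe sets that differed by 1.29. Of the 9 kept green leaf markers 2 had a log2 difference above 0 and 7 below, with a median of -0.21. Of 12 markers of the shoot meristem and young organs, 6 were above the controls on neither array, among them the meristem genes OSH1 (23.4 in yellow leaf tips against 6.96 in green leaves) and OSH71 (35.4 and 34.2). Of the 4 kept ones none differed by 2-fold, and GRF11 was far above the controls on both arrays (4713 and 4818). Of 10 anther and seed markers, 5 were above the controls on both arrays and 1 on the green array alone. All 6 kept ones were below 0, with a median of -0.50. The only root marker, PHT1-6, read 88.3 and 10.2. The part that the mix of tissues played in the differences below was not tested. In RNA from whole tissue, fewer cells of a kind and less RNA per cell cannot be told apart.

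The 3 families differed in where their members lay. All 5 H2B genes had a log2 difference above 0, with a median of 0.58, except that H2B.11 was at -0.01 under the filter at the 75th percentile. Of the kept kinesins 14 were above 0 and 8 below, with a median of 0.34. Without the filter 22 kinesins were above 0 and 10 below, with a median of 0.42. Of the kept cyclins 4 were above 0 and 13 below, with a median of -0.20. Over all 14697 kept genes the median was 0.08 and 56.6% were above 0. Over all genes without the filter the median was 0.10 and 58.5% were above 0. Differences of at least 2-fold occurred in 3 kept kinesins that were higher and 2 that were lower, in 1 H2B gene that was higher, and in no cyclin. Over all kept genes 5.57% were higher and 3.18% lower by this measure. These numbers of genes are small, and the medians and counts describe 2 arrays.

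**Figure D1:**
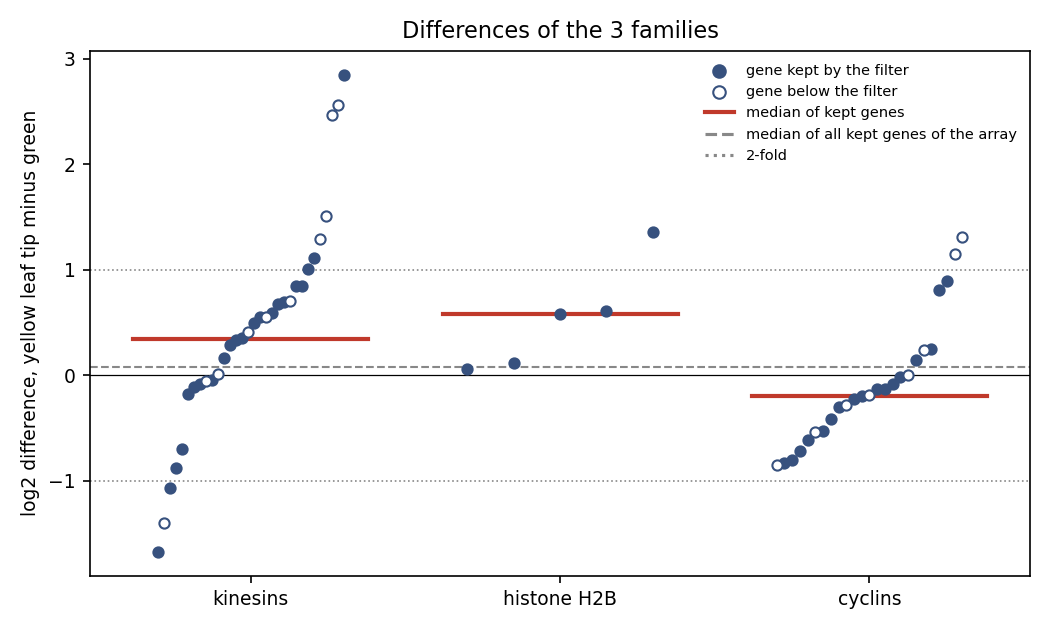
Each point is 1 gene, placed by its log2 difference (yellow leaf tip minus green, vertical axis) in its family (horizontal axis); open points are genes below the filter, centred over all probe sets. The red bars are the medians of the kept genes, 0.34 for kinesins, 0.58 for H2B and -0.20 for cyclins, the dashed line is the median of all kept genes, 0.08, and the dotted lines mark 2-fold.

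Kept kinesins ran from -1.67 to 2.85, but both ends were genes with 1 signal within the Bacillus controls, which passed the filter through the other array. Among the kept kinesins above the controls on both arrays the differences ran from -1.07 to 1.12. KIN14F (LOC4332578), a member of the minus-end-directed kinesin-14 class, read 187 in yellow leaf tips against 7.61 in green leaves. Its yellow signal was above all Bacillus controls of its array, and its green signal was within their range. The log2 difference was 2.85 (7.20-fold after the pseudocount), and it ran from 1.56 to 4.67 over the settings tried, so its size is poorly fixed. It was the only kept member with a log2 difference of at least 2 in size, which 1.12% of kept genes reached on the higher side and 0.333% on the lower side.

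KIN7F (LOC4336528), of the kinesin-7 class, had both signals well above the controls. It read 1392 in yellow leaf tips against 654 in green leaves, a log2 difference of 1.12 (2.17-fold), which ran from 1.02 to 1.15 and stayed past 2-fold under all 9 other settings. KIN14I, the kinesin-like calmodulin-binding protein KCBP, read 452 and 223. Its difference, 2.01-fold, lay on the threshold and was below 2-fold under 4 of 8 other settings, such as no centring.

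At the low end were KIN10B (LOC4335606) and KIN14K (LOC4339353). KIN10B read 30.5 in yellow leaf tips, within the range of the Bacillus controls, and 153 in green leaves, above them. Its log2 difference was -1.67, and -2.27 to -0.97 over the settings. KIN14K, of the minus-end-directed class, was read by 3 probe sets. The 2 kept ones lay lower in yellow leaf tips, at 345 against 840.3 and 448 against 927, and both were open to cross-hybridization with related genes. The third read 19.2 against 29.6, both within the range of the controls, and was below the filter, so it gave no direction. The kept mean was -1.07, and it was -0.77 when all 3 were used, so KIN14K was past 2-fold without the dim probe set and not with it. KIN14O (250.2 against 498, -0.88) was the next lowest, and KIN14A had 257 against 447 (-0.70).

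KIN4A and KIN14L were far above the controls on both arrays. KIN4A, known in rice as GDD1 and needed for stem growth and ordered cellulose in the wall, read 1167 in yellow leaf tips against 952 in green leaves (0.34). KIN14L read 1049 and 1232 (-0.18). Both differences were smaller than the spread between probe sets of a gene. KIN13A, known in rice as SRS3 for the small, round seeds of its mutant, had 2 probe sets that disagreed. The first, open to cross-hybridization, read 992 against 666 (0.61), and the other, not marked as such, read 829 against 888 (-0.05). The other kept kinesins lay between -0.11 and 0.85, with KIN13B at 490.3 against 273 (0.85, from a probe set open to cross-hybridization) at the upper end.

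By class, both kept kinesin-13 genes were above 0, as were 3 of 5 kinesin-7 genes and 6 of 11 kinesin-14 genes. Over all kept genes 56.6% were above 0, so these small counts do not set the classes apart. In these classes KIN13A, KIN14N and KIN7J changed sign over the settings. Among kept kinesins above the controls on both arrays, the highest was KIN7F of the kinesin-7 class, and the lowest was KIN14K of the kinesin-14 class. Kinesin-5 genes, which push spindle poles apart in dividing cells, were dim: KIN5C read 149 against 95.7 (0.59), and KIN5A read 99.7 against 57.0 and was below the filter. In both, the green signal was within the range of its controls.

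**Figure D2:**
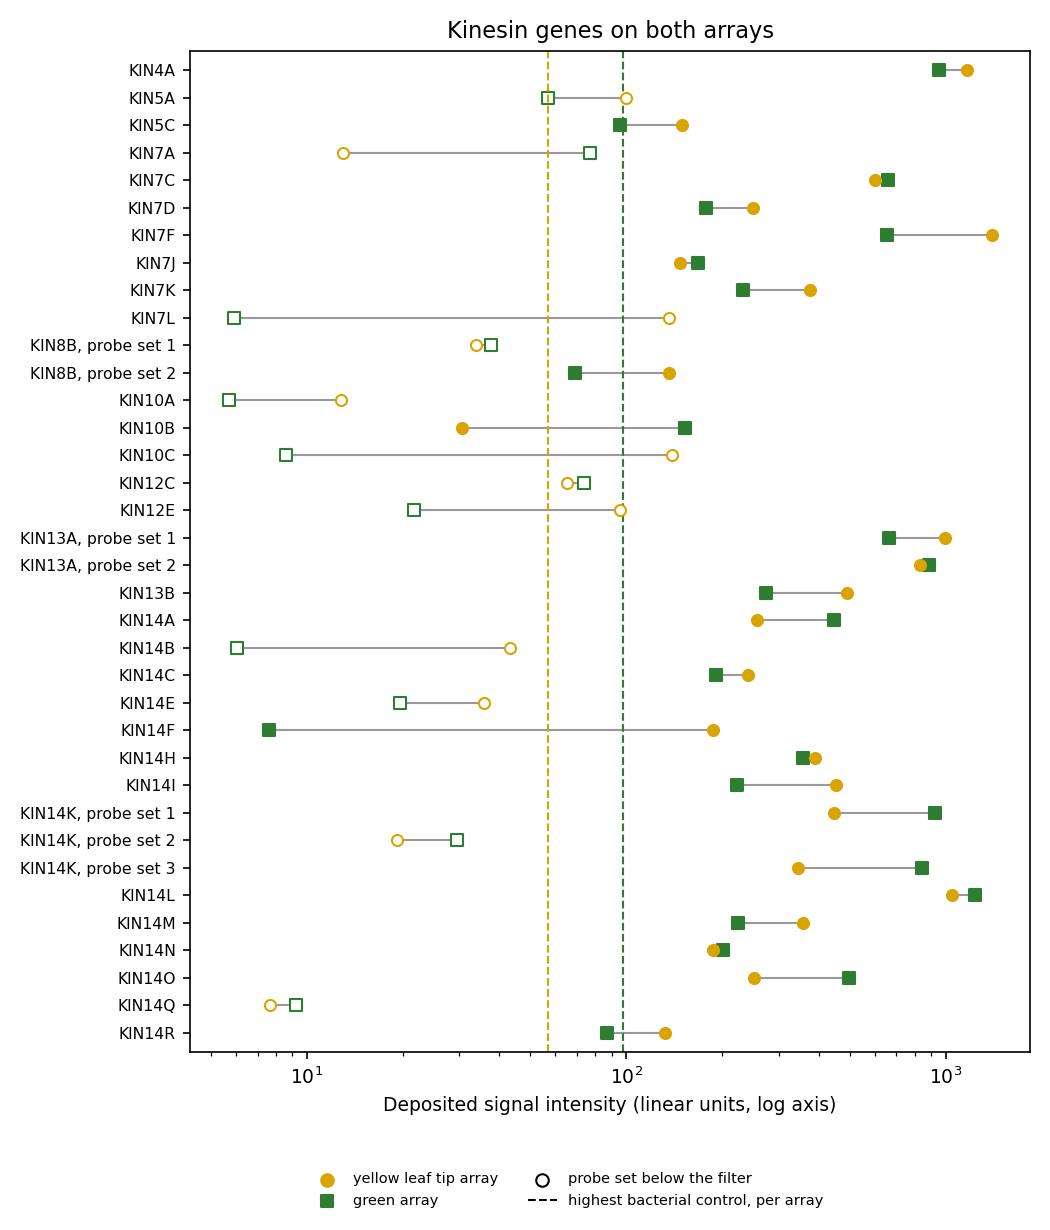
Each line is 1 kinesin probe set, with its deposited signal (horizontal axis, linear units on a log axis) on the yellow leaf tip array (circle) and the green array (square); open symbols are probe sets below the filter. The dashed lines mark the highest Bacillus control on each array, 56.9 and 97.6, and the long lines of KIN14F, KIN7L and KIN10C have their green end far below them.

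Many kinesins lay near the level of the controls. Of the 32 kinesins, 17 were above the Bacillus controls on both arrays, 9 on the yellow leaf tip array only, 1 (KIN10B) on the green array only and 5 on neither. KIN12C counted among the 9 though it read 65.2 in yellow leaf tips against 73.9 in green leaves, since the green controls reached higher. Over all genes, 7.69% were above the controls on the yellow leaf tip array only and 1.67% on the green array only. The kinesins had more genes near the limit than the array as a whole, so the share was also taken over the genes not above the controls on both arrays. It was 60% for kinesins (9 of 15) and 36.9% for all genes (1377 of 3728).

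Because the controls reached higher on the green array, the count was repeated with the green array's highest control, 97.6, as the limit for both arrays. KIN12C and KIN12E then dropped out, which left 7 of 32 kinesins on the yellow leaf tip side, where 3.42% of all genes lay, and KIN10B again on the green side, where 4.45% of all genes lay. Over the genes not above this limit on both arrays, 46.7% of kinesins (7 of 15) and 14.5% of all genes lay on the yellow leaf tip side. On the green side these shares were 6.67% and 18.9%. The 7 kinesins were KIN14F, KIN7L, KIN10C, KIN5C, KIN5A, KIN8B and KIN14R. KIN8B was counted through a probe set open to cross-hybridization (136 against 69.2), while its other probe set read 33.9 against 37.7, within the controls. KIN5C (0.59), KIN14R (133 against 87.3, 0.55) and KIN5A (0.71 without a filter) differed by less than 2-fold, with signals on either side of the limit. All 7 genes were picked out after their values were seen.

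Among these 7, KIN10C, KIN7L and KIN5A were below the filter. KIN10C read 139 in yellow leaf tips against 8.62 in green leaves, and KIN7L read 136 and 5.91. Their log2 differences without a filter were 2.46 and 2.56, close to that of KIN14F, but their mean signals fell short of the filter. KIN12E, of the class that guides the phragmoplast in Arabidopsis, read 95.8 and 21.6 (1.51). KIN14B read 43.3 and 6.03 (1.29), both within the range of the controls. Without a filter 7 of 32 kinesins were higher by at least 2-fold, where 7.68% of all genes were, and 2 were lower, where 4.4% were. Of these 7 kinesins, KIN7F and KIN14I alone had both signals above the controls.

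Several kinesins known from development and division were above the controls on neither array. KIN7A is the NACK gene, whose tobacco relative drives phragmoplast growth. It read 13.0 in yellow leaf tips against 77.1 in green leaves, both within the controls (-1.40 without a filter). KIN10A, known in rice as STD1 for the stemless dwarf form of its mutant, read 12.8 and 5.68. KIN14Q, the actin-binding kinesin KCH1, read 7.65 and 9.27. For these 3 kinesins a difference was not detectable at these signals.

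H2B genes had a narrower range, from 0.06 to 1.36. H2B.10 (LOC4324495) read 589 in yellow leaf tips against 224 in green leaves, both above the controls. Its log2 difference was 1.36 (2.57-fold), and it ran from 1.16 to 1.45 over the settings and stayed past 2-fold in all 8 of them. H2B.6 read 7205 against 4868 (0.61) and H2B.7 4766 against 3287 (0.58), the latter from a probe set open to cross-hybridization. Both differences were larger than the SD of 0.40 between bright probe sets of a gene.

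The other H2B genes were nearly level between the arrays. H2B.5 read 9398 in yellow leaf tips against 8979 in green leaves (0.12). H2B.11 read 6189 and 6139 (0.06), and its sign turned under the filter at the 75th percentile (-0.01). Both lay close to the median of all kept genes. H2B.10, H2B.7, H2B.6 and H2B.5 lie within 12 consecutive genes of the RefSeq gene table, in that order, with H2B.11 far from them. Their differences varied along this stretch, from 1.36 for H2B.10 at one end to 0.12 for H2B.5 at the other. H2B genes are very similar in sequence, so a probe set may read several of them, and neither the assignment of a signal to 1 gene nor the independence of the 5 values is sure. The 4 H2B genes with no probe set of their own, H2B.2, H2B.3, H2B.4 and H2B.9, could contribute to these signals too, which was not tested.

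Cyclins had the lowest median and no kept member that reached 2-fold. Their kept differences ran from -0.83 to 0.90. Below the filter CYCA2-1 and CYCF2-2 were past 2-fold on the higher side, with all signals within the controls. Without a filter this made 2 of 25 cyclins (8%) higher by at least 2-fold, close to the 7.68% of all genes. Without a filter, 17 of 25 were below 0 and 8 above, with a median of -0.16, and 41.5% of all genes were below 0 in the same setting. The 13 of 17 kept cyclins below 0 stand beside 43.4% of all kept genes. Most of these differences were no larger than the spread between probe sets of a gene.

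Among cyclins of the cell cycle proper, those of the A, B and D types, 8 of 10 kept genes were below 0, with a median of -0.47. CYCD4-1 among the 8 was above 0 under some settings. Without a filter 12 of 16 genes of these types were below 0, with a median of -0.33. The A and B types act from DNA copying to mitosis, and all 3 kept members were below 0. CYCB2-1 (LOC4336670), a mitotic cyclin, read 57.7 in yellow leaf tips against 126 in green leaves (-0.83), and CYCA3-2 read 57.5 and 122 (-0.80). The yellow signals of both lay just above the highest control of that array, 56.9. Their differences ran from -1.07 to -0.37 and from -1.03 to -0.32, passed 2-fold without a pseudocount and were smallest after loess. CYCA1-4 read 589 and 670.1 (-0.13).

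The remaining 4 A- and B-type genes were within the range of the controls on both arrays. CYCB2-2, the partner of CYCB2-1 in the mitotic B2 type, had probe sets at 4.66 against 65.0 and at 2.98 against 6.37, which differed by 1.51 on the log2 scale. CYCB1-1 read 39.5 and 52.3, and CYCB1-3 read 11.99 and 30.6. CYCA2-1 read 48.1 and 7.75 and was the only A- or B-type gene above 0 (1.31 without a filter). B1-type cyclins mark cells in G2 and mitosis, and their signals here were not distinguishable from those of probe sets with no rice target.

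D-type cyclins, which act on entry into the cell cycle, lay on both sides of 0. The 3 D5 genes all lay lower in yellow leaf tips: CYCD5-2 read 377 against 609 (-0.61), CYCD5-1 215 against 332 (-0.53) and CYCD5-3 209 against 296 (-0.41). The CYCD5-1 value came from a probe set open to cross-hybridization. A second, dimmer probe set of CYCD5-2 gave 58.0 against 101, each just above the highest control, and nearly the same difference (-0.57). CYCD4-2 read 116 against 212 (-0.71), and CYCD4-1 87.1 against 108 (-0.20, with the sign turning over the settings, from -0.25 to 0.16). On the other side, CYCD6-1, a type known in Arabidopsis for the divisions that set up root tissue layers, had the highest difference among the kept cyclins, with 412 in yellow leaf tips against 219 in green leaves (0.90). CYCD3-1 was level at 341 and 318 (0.15). Below the filter, CYCD3-2 read 64.3 and 89.8 (-0.29 without a filter). CYCD2-2, also below it, read 55.6 and 47.6, both within the controls (0.24 without a filter).

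Cyclins of transcription had both signs and smaller differences. CycC1;1, a subunit of the Mediator kinase module, had 2 probe sets, at 2305 against 2628 and 3241 against 3443, with a mean of -0.09. CycT1;4 read 1453 against 1767 (-0.23), and CYCL1-1 1460 against 1268 (0.25). The exception was CycT1;2, which read 1292 in yellow leaf tips against 754 in green leaves (0.81, and 0.71 to 0.84 over the settings), from a probe set open to cross-hybridization. T-type cyclins activate the kinases that release RNA polymerase for elongation, and the 2 measured members lay on either side of 0. CYCH1-1, the partner of the kinase that activates other cyclin-dependent kinases, read 419 against 478 (-0.13). The P-type genes CYCP3-1 and CYCP4-1 had -0.30 and -0.02, the latter turning sign over the settings, and CYCP2-1 was within the controls. CYCF2-2 read 47.0 and 10.7, also within the controls.

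**Figure D3:**
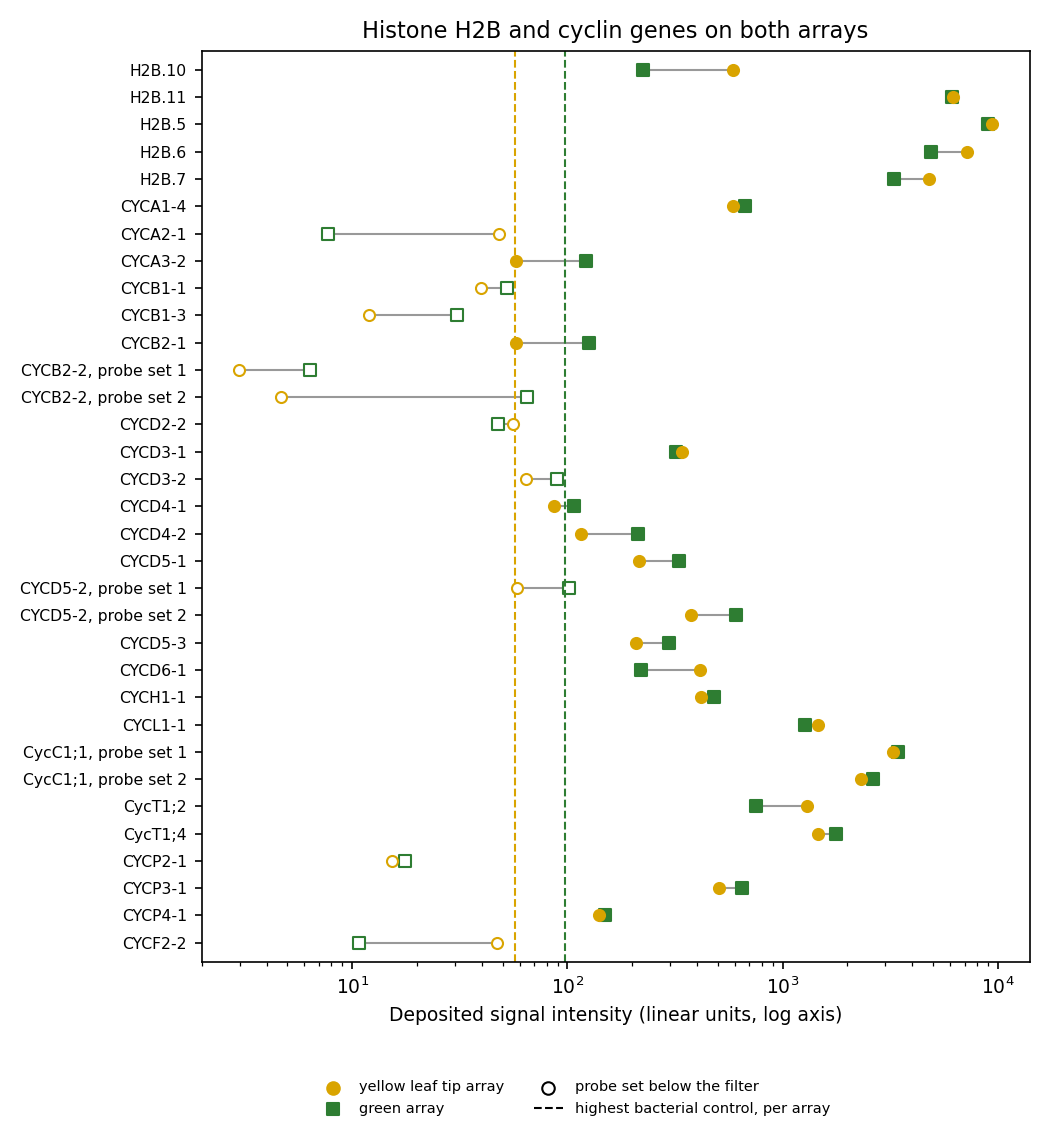
Each line is 1 probe set of an H2B gene or a cyclin gene, with its deposited signal (horizontal axis, linear units on a log axis) on the yellow leaf tip array (circle) and the green array (square); open symbols are probe sets below the filter. The dashed lines mark the highest Bacillus control on each array, 56.9 and 97.6: all H2B signals lie above them, while the B1- and B2-type cyclins lie near or below them.

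Of the 25 cyclins, 17 were above the Bacillus controls on both arrays, 1 on the yellow leaf tip array only and 7 on neither. The 1 was CYCD3-2, at 64.3 against a higher signal of 89.8 in green leaves. With 97.6 as the limit on both arrays, none was above it in yellow leaf tips only, and 3 were in green leaves only. The latter were CYCB2-1, CYCA3-2 and CYCD4-1. Over all genes these shares were 3.42% and 4.45%. Of the genes not above this limit on both arrays, 27.3% of cyclins (3 of 11) and 18.9% of all genes lay on the green side. The side on which the few dim cyclins lay thus depended on the limit, which was chosen after seeing the data.

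Other genes of the cell cycle gave a mixed picture. Among 18 kept cyclin-dependent kinases and regulators, 2 were higher by at least 2-fold and none was lower, beside 5.57% and 3.18% of all kept genes, and the median was -0.15. Both of the higher ones are inhibitors of these kinases. SMR1, a SIAMESE-related inhibitor, read 294 in yellow leaf tips against 73.5 in green leaves, the latter within the controls (1.77, and 1.28 to 2.05 over the settings). KRP1, a Kip-related inhibitor, read 3557 and 1644 (1.15, and 1.08 to 1.19). The other kept KRP genes did not follow it as a group: KRP4 had -0.39 and KRP5 -0.70, and KRP6 had 0.39 but -0.19 without a filter. CKS1, a docking subunit of the kinases, read 1571 and 2796 (-0.77). The B-type kinase gene CDC2Os-3, below the filter, read 36.0 and 108 (-1.07 without a filter). CDC25.1 and CDC25.2 in this list are also listed as arsenate reductases. The members apart from SMR1 and KRP1 were named after their values were seen.

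Kept DNA replication genes lay on both sides of 0, with 9 above and 10 below and a median of -0.02. None of the 19 differed by 2-fold, where 5.57% of all kept genes were higher and 3.18% lower. POLD2 of DNA polymerase delta was at the top (0.72) and MCM9 at the bottom (-0.50). PCNA, the sliding clamp, read 369 in yellow leaf tips against 441 in green leaves (-0.20). A further 11 of 30 members were below the filter. Of the MCM helicase genes, MCM2 (93.3 and 117) and MCM9 were kept. The others were below the filter, among them MCM4 at 5.24 and 8.88 and MCM5 at 18.2 and 14.5, both within the controls. Without a filter 3 replication genes were lower by at least 2-fold, namely MCM6 and the RPA genes RPA70b and RPA32-3, each with its yellow leaf tip signal within the controls. In that setting 4.4% of all genes were lower.

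Microtubule and actin genes, the tracks of kinesins and of other motors, were all above the controls on both arrays. None of the 15 differed by 2-fold, where 5.57% of all kept genes were higher and 3.18% lower. The median of the 15 was 0.26, and 10 were above 0. The beta-tubulin genes ran from TUB6 at 574 against 1193 (-0.98, and -1.07 at the lowest over the settings) to TUB5 at 5673 against 3072 (0.93). Of the 2 kept genes for other chromatin proteins, FAS2 of chromatin assembly had 0.70 and CenH3 of the centromere 0.04, which turned sign over the settings. Of the 2 kept transcription regulators of the cycle, RBR2 had 0.19 and MYB3R-2 -0.02, the latter again turning sign.

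**Figure D4:**
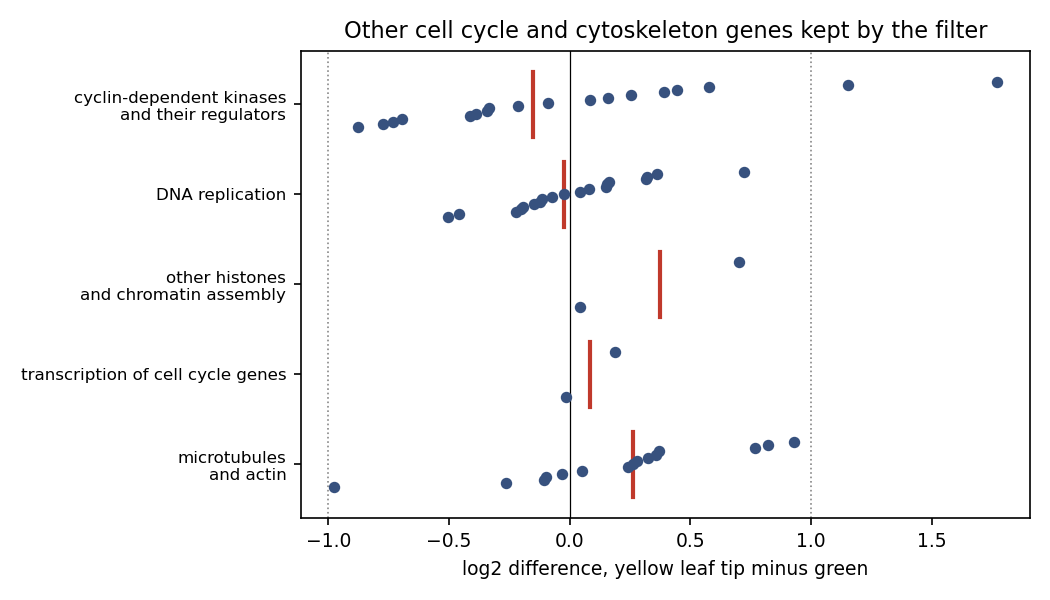
Each point is 1 kept gene of the lists of other cell cycle and cytoskeleton genes, the marker lists left out, placed by its log2 difference (yellow leaf tip minus green, horizontal axis) in its list (vertical axis), with a red bar at the median of the list. The 2 points beyond the upper 2-fold line are the kinase inhibitors SMR1 (1.77) and KRP1 (1.15), and no point of these lists lies beyond the lower one.

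The plot of the settings shows which members had a stable size. KIN7F and H2B.10, with both signals well above the Bacillus controls, kept narrow ranges. KIN14F and KIN10B, with 1 signal within the controls, had wide ones, as did CYCB2-1 and CYCA3-2, whose yellow leaf tip signals were just above them.

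**Figure D5:**
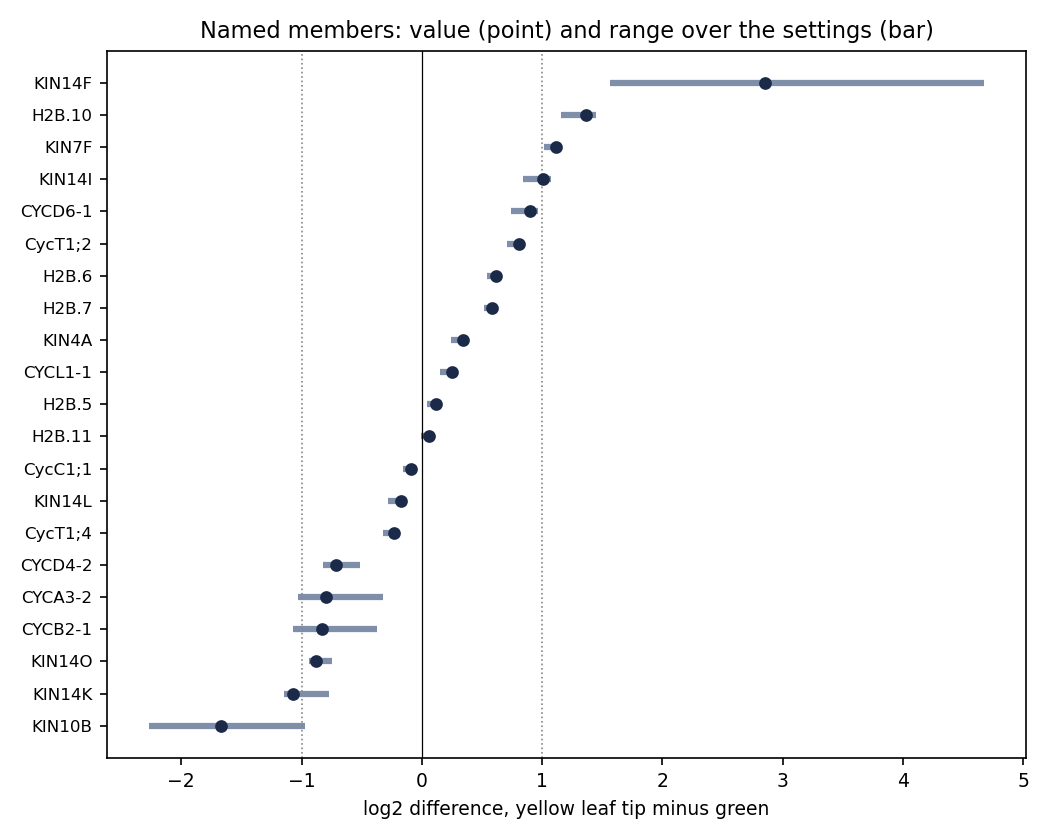
Each row is a named member, with its log2 difference (yellow leaf tip minus green, horizontal axis) as a point and the range over the other settings as a bar; dotted lines mark 2-fold. KIN14F has the widest bar, 1.56 to 4.67, and KIN10B runs from -2.27 to -0.97, whereas H2B.10 runs from 1.16 to 1.45.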

How the data were processed

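Per the labels' protocols, total RNA from leaves (RNeasy plant mini kit) was made into biotinylated cRNA. The authors deposited linear signal intensity values of 57381 probe sets on each array. Neither their software nor their scaling was given in the sources used here. Without the top and bottom 2% of values, each array had a mean of 500.1. Here, 123 control probe sets were left out, and the deposited values were put on a log2 scale after 22.6, their 25th percentile, was added as a pseudocount. Probe sets with a mean of at least 86.0, the median, were kept (28629), differences were centred on their median (a shift of -0.05), and a gene is the mean of its kept probe sets. A size of 1 (log2), or 2-fold, was counted. No test was run, since each group had 1 array, and precision is limited by the number of arrays. The platform annotation gave 22436 probe sets a single gene and 95 probe sets several, and it listed none for 34727. All 17905 genes were in the RefSeq table (ASM3414082v1), used for names and gene order only. Where 2 genes shared a name, another synonym was used.

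The members and lists were chosen with earlier results of these data known. Named by rule were kept members of at least 2-fold, the 3 highest, 3 lowest and 3 with the highest mean signal of each family, genes whose probe sets differed by over 1, and the 2 brightest below the filter of each family, and in each list the genes of at least 2-fold or else the highest and lowest; other genes were named after their values were seen. OSH1, OSH3 and P125Nap1 were taken out of the chromatin list and MADS6 out of the mitotic exit list, since their names matched by accident, which left no gene for mitotic exit. OSH1 stayed a meristem marker. Planned promoter motifs were not analysed here. Scripts used Python 3.11.15, pandas 2.3.3 and statsmodels 0.14.6, and were tested on simulated data.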

Additional observations from a re-analysis of the deposited data

How the results depend on the processing

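No paired analysis was possible because each group has 1 array. Medians kept their sign under all 9 other settings that give one: a pseudocount of 0 or at the 50th percentile, quantile normalization, loess (fraction 0.3), no centring, leaving out the filter or setting it at the 75th percentile, leaving out cross-hybridizing probe sets, and the brightest probe set per gene. With the filter at the 75th percentile, which left 6 kinesins and 4 H2B genes, the kinesin median was 0.028 and that of H2B 0.28, with 1 kinesin higher, 1 lower and 0 H2B genes higher by 2-fold. Without cross-hybridizing probe sets the H2B median was 0.36 and 1 kinesin was lower, as with the brightest probe set per gene. With the larger pseudocount 0 kinesins were lower. Without a filter 7 of 32 kinesins and 2 of 25 cyclins were higher, beside 7.68% of all genes. Without a pseudocount 2 of 17 cyclins were lower. At a log2 size of 2, 1 kinesin and 0 H2B genes were higher and 0 kinesins lower. The other 72 values of medians and counts stayed near the main ones. These medians moved by less than 0.46, the SD between probe sets, divided by the square root of the number of kept genes. The counts stayed within 1.5 times. KIN14F, KIN7F and H2B.10 stayed past 2-fold in every setting that kept them. KIN10B lost this with the larger pseudocount, KIN14K also without a filter and with the brightest probe set, and KIN14I under 4 settings. With 1 limit of the Bacillus controls for both arrays, chosen after seeing the data, 7 and not 9 kinesins were above it on the yellow leaf tip array only. Signals within the Bacillus controls limit what can be read for dim members.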
